A study of Caenorhabditis elegans with 4 samples.

Results

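The NHR-12 binding regions on chromosome III of Caenorhabditis elegans are described here, as mapped by chromatin immunoprecipitation and sequencing (ChIP-seq) in larvae of the L2 stage. Every region listed on chromosome III was taken, whatever its score. These were 41 of the 197 regions in the authors' combined list, 3526 of the 25045 regions in the list of ChIP replicate 1 and 4132 of the 30000 regions in the list of ChIP replicate 2. The series has 4 samples, namely 2 anti-GFP ChIP libraries and 2 input libraries, numbered as replicates 1 and 2. Regions of the input libraries were not analysed here, and read depth is unknown. All libraries came from hermaphrodites of strain OP318, grown at 20 °C. The strain has the unc-119(ed3) mutation and an integrated transgene, wgIs318, that was introduced by biolistic transformation. This transgene encodes NHR-12 with a TY1, EGFP and FLAG tag and also carries unc-119(+), which rescues the mutation. The endogenous unc-119 gene is itself on chromosome III in the RefSeq gene table of assembly WBcel235. Its position on the build of the lists was not used here, so whether a region lies at it was not analysed. Chromatin came from whole larvae, so the lists do not say in which cells a region was bound, and whether the replicates were separate cultures is not stated in the labels.

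NHR-12 belongs to the nuclear hormone receptors, transcription factors that contact DNA through a zinc finger domain and often carry a pocket for small lipophilic ligands. The family is greatly expanded in nematodes, and many of its members descend from a receptor related to HNF4. The autosomes of C. elegans have a central part with little recombination, where conserved genes and operons (sets of genes transcribed together from 1 promoter) are frequent. Their arms recombine more and hold more repeats and fast-evolving gene families. The question put to the lists was where on chromosome III the regions lie with respect to centre and arms, and how far the replicates agree there.

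Positions are on WormBase WS220, and region scores are the authors' own, with higher taken as stronger and used only within a list. The end of the last listed region, at 13781355, stood for the length of III. The middle 50% of this length is called the centre, which leaves a left arm up to 3445338 and a right arm after 10336016. Genes at the regions were not assigned, because an annotation of WS220 was not used here. No sequence of the regions is shown for the same reason.

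Of the 41 combined regions on III, 26 had their midpoint in the centre, 13 on the right arm and 2 on the left arm. This gave densities of 3.77 regions per Mb in the centre, 3.77 on the right arm and 0.58 on the left arm. The share in the centre was 63.4% (95% exact interval 46.9 to 77.9), beside 57.5% over the 5 autosomes together. It did not pass the two-sided exact binomial test against 50% (p = 0.117). A set of 70 regions on III, added after the data were seen, shared the highest score of replicate 1 alone. Of these, 46 were in the centre (65.7%), and the share passed (exact binomial test, p = 0.0115). Entries of this list can overlap each other, so that test may not hold for them. On the other autosomes 114 of 189 such regions (60.3%) lay in the centre, and the difference from III did not pass Fisher's exact test (two-sided p = 0.473). The combined share was 8.18 percentage points above that of the other autosomes, where 58 of 105 regions (55.2%) lay in the centre, and this difference did not pass Fisher's exact test (two-sided p = 0.457). Without replicate 1, in the strongest 197 nuclear regions of replicate 2, its direction turned, with 57.5% on III against 58.5% on the other autosomes. These tests treat regions as independent draws. They do not measure variation between animals or cultures.

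The arms of III differed in their number of combined regions. Of the 15 arm regions, 2 lay on the left arm (13.3%, 95% exact interval 1.66 to 40.5) and 13 on the right arm. Over the arms of the 5 autosomes together 33.9% of the regions were on a left arm. On the other autosomes 19 regions lay on left arms and 28 on right arms. By chromosome, left and right arms had 4 and 15 on I, 3 and 7 on II, 9 and 6 on IV, and 3 and 0 on V. Fewer regions on the left arm than on the right were thus also seen on I and II. The 70 regions of III at the highest score of replicate 1 had 5 on the left arm and 19 on the right arm (20.8% on the left), and the strongest 41 of replicate 2 had 6 and 11 (35.3%). This contrast was noticed in the counts themselves and was given no test.

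**Figure D1:**
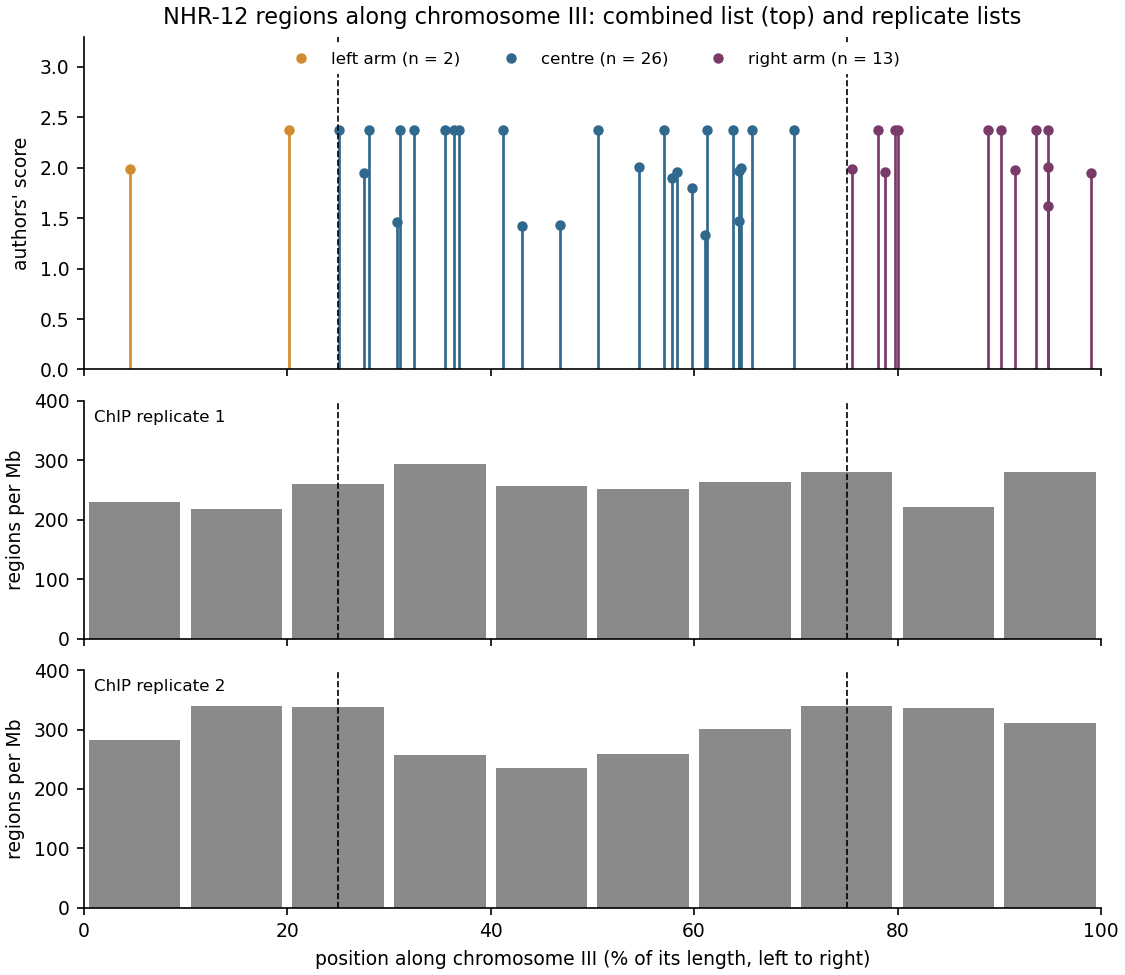
Regions along chromosome III, with position as % of its length. Stems give the authors' score of the 41 combined regions, coloured by arm or centre, and bars give the density of the replicate lists in 10 equal bins of the length. Dashed lines bound the centre. Between the 2 left-arm regions the combined list has no entry. The bin that lies wholly in this stretch has 218 regions per Mb in replicate 1, its lowest, and 340 in replicate 2, its highest. The lowest bin of replicate 2, with 235, is in the centre.

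The 2 left-arm regions were far apart. The region from 623392 to 623955 had a combined score of 1.99 and met rank 804 of 25045 in replicate 1 and rank 131 of 30000 in replicate 2. The region from 2785757 to 2786320 had the highest combined score, 2.37, with rank 5422 in replicate 1 and rank 80 in replicate 2. Both thus stood higher in the list of replicate 2 than in that of replicate 1, as most combined regions did. Among regions with a counterpart in both lists, 25 of 40 on III had the better percentile rank in replicate 2. On the other nuclear chromosomes it was 104 of 147. The 2.16 Mb between the 2 left-arm regions was the longest gap between neighbouring combined regions of III.

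The replicate lists were not empty in that stretch. Replicate 1 had 467 regions there, or 216 per Mb, and replicate 2 had 681, or 315 per Mb. Its strongest entry in replicate 1 ran from 887978 to 888577 at rank 118, and that in replicate 2 from 1618799 to 1619314 at rank 116. In the stretch, 5 of the 467 entries of replicate 1 shared the highest score of the list, and 3 of the 681 of replicate 2 were among its strongest 1%. Over all of III these numbers were 70 of 3526 and 50 of 4132. Strong entries were thus a smaller share of the stretch than of III in both lists, which was not tested.

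Over the whole chromosome the 40 gaps between neighbouring combined regions had a median of 189 kb. In the densest 1 Mb, 9 regions lay between 7973044 and 8904492. Of these 9, 2 had the highest combined score, and their median ranks were 259 in replicate 1 and 126 in replicate 2. Chromosome I had a fuller window of the same size with 13 regions, and the fullest on II, IV, V and X held between 4 and 6.

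The 10 combined regions with the best mean percentile rank in the replicate lists were all at the highest combined score, 2.37. None was on the left arm. In replicate 1 their overlapping regions all shared the highest score of the list, 2.86, so their ranks there follow the numbers in the region names. In replicate 2 the same holds within a tie of 75 entries at 2.17, except for the regions starting at 12250064 and 5678815, which scored 1.69 and 1.60. The regions starting at 4281946 and 8443514 were tied at the highest score of both replicate lists too, but name numbers left them out of the 10. The best was in the centre, from 3867391 to 3867692, with rank 8 in replicate 1 and rank 3 in replicate 2. The next was on the right arm, from 12904820 to 12905383, with ranks 18 and 12 in replicates 1 and 2. It was followed on the same arm by a region from 10759045 to 10759185, with ranks 20 and 33. The third right-arm region of this set, from 12250064 to 12250627, had ranks 41 and 89.

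The other 6 of these 10 lay in the centre. The region from 7854357 to 7854920 had rank 43 in replicate 1 and rank 37 in replicate 2. That from 4475362 to 4475925 had ranks 39 and 54, in the same order. The regions starting at 5017994 and 4899624 were 118 kb apart. Their ranks were 59 and 67 at the one and 60 and 68 at the other, all within the ties at the highest scores. The region starting at 9051016 had ranks 88 and 39. The region starting at 5678815 had ranks 30 and 123.

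Agreement between the replicates at the combined regions was described by the strongest entries of each list. In replicate 1 these were the 363 entries tied at the highest score (1.45% of the list), since a cut at 1% would have split the tie, and in replicate 2 the strongest 1%, or 300 entries. Of the 41 regions on III, 21 met such an entry in both replicates (51.2%), beside 44.7% over all combined regions. Of these 21, 16 were in the centre, 5 on the right arm and none on the left arm, and 17 had the highest combined score. Another 11 met a strongest entry of replicate 2 only, and 9 one of replicate 1 only. On the other nuclear chromosomes these numbers were 67, 53 and 29 of 156, and 7 met none in either list. The combined list derives from both replicates, so these counts describe the listing and are no independent evidence of binding.

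**Figure D2:**
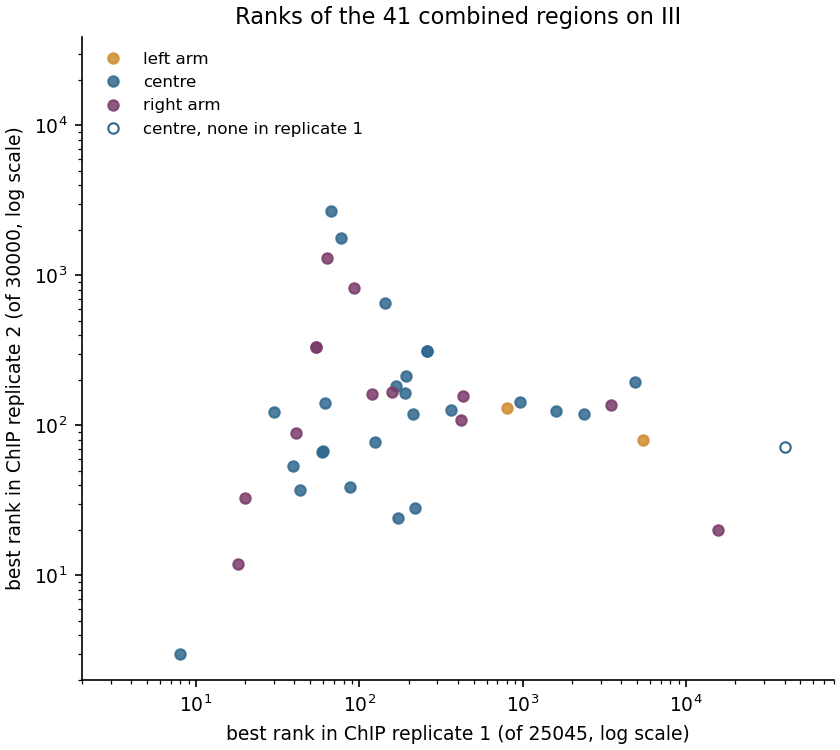
Best rank of an overlapping region in ChIP replicate 1 (x, log scale) and in ChIP replicate 2 (y, log scale) for each of the 41 combined regions on III, coloured by arm or centre. The open symbol at the right edge, at rank 72 in replicate 2, has no counterpart in replicate 1. The point farthest right among the filled ones is at rank 15631 in replicate 1 and rank 20 in replicate 2.

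The 11 regions that stood high in replicate 2 only included the 5 with the worst mean percentile ranks on III. The centre region from 6447574 to 6448137 met rank 72 in replicate 2 and no region in replicate 1, and its combined score was 1.43. The right-arm region from 12425581 to 12426885 was at the highest combined score with rank 20 in replicate 2, yet its only overlap in replicate 1 was at rank 15631 with a score of 0.0816. At 1305 bp it was the widest combined region of the chromosome. The left-arm region starting at 2785757, described above, also belonged here. So did a centre region from 5943517 to 5944080 with ranks 4833 and 195 in replicates 1 and 2, and a right-arm region from 10848639 to 10849202 with ranks 3461 and 137.

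The other regions high in replicate 2 only had ranks between 420 and 2362 in replicate 1, all below the tied scores. In the centre these started at 8242625 (ranks 2362 and 120 in replicates 1 and 2), 8903929 (1599 and 125) and 3456097 (966 and 143). On the right arm they started at 11035908 (420 and 109) and 13643307 (432 and 158). The left-arm region starting at 623392 completed the set. Of all 11, 4 were at the highest combined score.

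The 9 regions high in replicate 1 only showed the opposite order, though barely so at the centre pair described below. The percentile ranks of that pair were 1.03% in replicate 1 and 1.04% in replicate 2. It falls in this class only because the set of replicate 1 was widened to hold the whole tie. The centre region starting at 7520511 had rank 67 in replicate 1 and rank 2671 in replicate 2, the lowest rank in replicate 2 among the 41. The centre regions starting at 8417361 and 4237471 had ranks 77 and 143 in replicate 1, and ranks 1782 and 655 in replicate 2. On the right arm the region starting at 10407133 had ranks 63 and 1305 in replicates 1 and 2, and that starting at 13062211 had ranks 92 and 825. All 41 regions were within the strongest 10% of replicate 2, and 36 were within that of replicate 1. On the other nuclear chromosomes these numbers were 145 and 129 of 156. The other 4 of the 9 formed 2 pairs, and 1 of these 4 was the sole region of the 9 at the highest combined score.

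On III 2 pairs of combined regions overlapped each other. On the right arm, regions from 13069896 to 13070459 and from 13070241 to 13070804 had scores of 1.62 and 2.37. Both met rank 54 in replicate 1 and rank 335 in replicate 2. In the centre, regions from 8873916 to 8874479 and from 8874136 to 8874699 had scores of 1.48 and 1.97, and both met ranks 259 and 312. The entries of replicate 1 at ranks 54 and 259 were both within the tie at the highest score of that list. In each pair the strongest overlapping entry of each replicate was the same for both members. On the right arm that entry was centred 30 bp from the member starting at 13070241 in replicate 1. In replicate 2 it was centred 0 bp from the member starting at 13069896. Merging overlapping regions left 39 stretches on III, and whether each pair is 1 locus was not tested.

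The remaining regions met a strongest entry of both lists. In the centre they started at 3801098, 4281946, 5080632, 6971745, 7973044, 8043619, 8443514, 8799885 and 9619121, and on the right arm at 10989273 and 12612289. Their ranks ran between 62 and 363 in replicate 1, all within the tie, and between 24 and 214 in replicate 2. Those starting at 3801098, 7973044, 8043619 and 12612289 scored 1.95, 1.90, 1.96 and 1.98 in the combined list, and the other 7 were at its highest score.

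By score, 22 of the 41 regions shared the highest combined value (53.7%), beside 51.8% over the whole combined list. The other 19 ranged from 1.34 to 2.01, with a median of 1.95. For the 76 lower regions of the other nuclear chromosomes this median was 1.62. By width, 38 of the 41 had 564 bp. The exceptions were the region of 302 bp starting at 3867391, that of 141 bp starting at 10759045 and that of 1305 bp starting at 12425581.

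All 41 combined regions overlapped an entry of replicate 2 by at least 1 bp, and 40 overlapped one of replicate 1. Over the whole combined list these shares were 98% and 97%, and 94.9% overlapped both. On III both replicates had a counterpart for 40 of 41 (97.6%, 87.1 to 99.9). Under a rule of midpoints at most 100 bp apart, 35 of 41 (85.4%) were found in replicate 1 and 39 (95.1%) in replicate 2. The strongest overlapping entry lay at a median of 26.5 bp from the combined midpoint in replicate 1 and 17 bp in replicate 2. The midpoints of the strongest entries of the replicates were a median of 48 bp apart, and within 100 bp of each other at 28 of 40 regions. For the other nuclear chromosomes the median was 37 bp over 147 regions, and 109 of these (74.1%) were within 100 bp, beside 70% on III. On III the distance exceeded 300 bp at 3 of 40 regions, namely both members of the right-arm pair (375 bp) and the region starting at 8242625 (328 bp). On the other nuclear chromosomes it did so at 13 of 147.

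**Figure D3:**
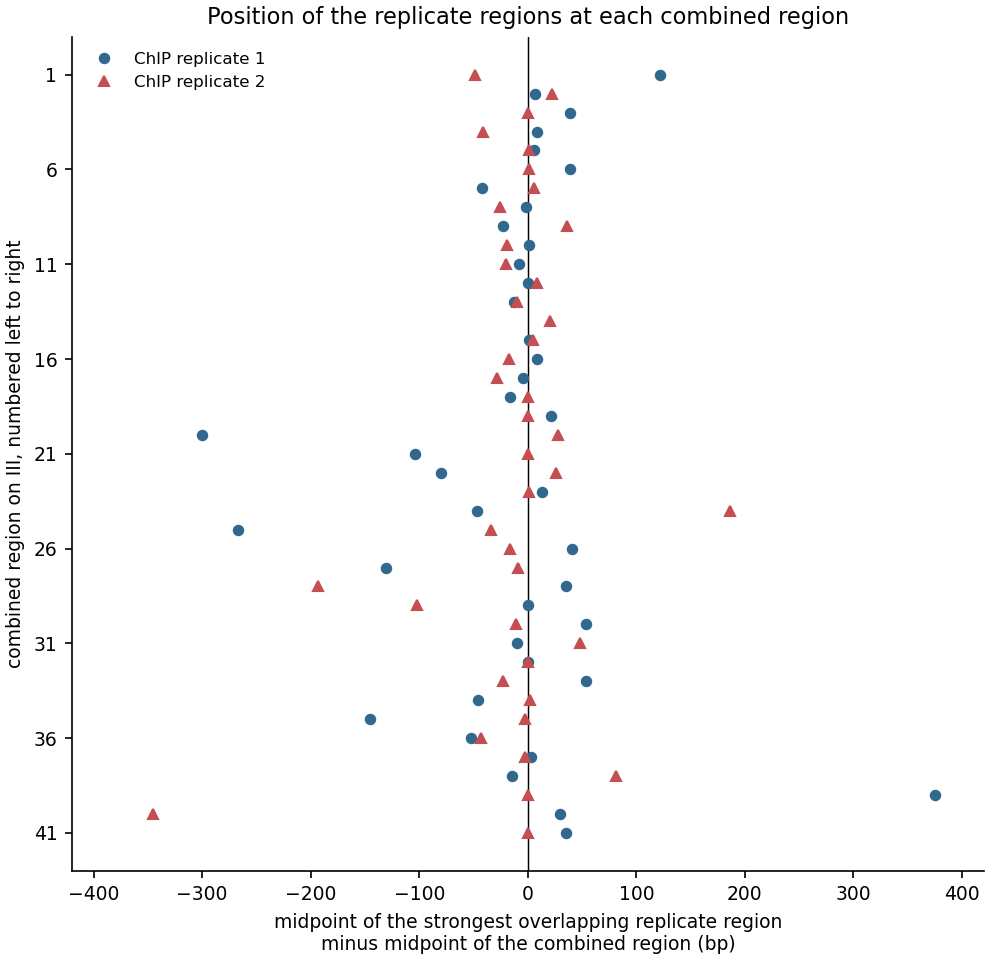
Distance in bp from the midpoint of each combined region on III to the midpoint of its strongest overlapping entry in ChIP replicate 1 (circles) and ChIP replicate 2 (triangles), with regions numbered from left to right. Most symbols lie within 100 bp of 0. The far ones include both members of the right-arm pair, numbered 39 and 40, at 375 and -345 bp.

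The full replicate lists covered III broadly and differed from each other in where they were dense. Replicate 1 had 256 regions per Mb on III, covering 13.5% of its length, and 2705 separate stretches remained once overlapping entries were merged. Replicate 2 had 299.8 regions per Mb, covering 14.1% in 3381 stretches. Replicate 1 was denser in the centre, with 268 regions per Mb against 231 on the left arm and 256 on the right arm. Replicate 2 was less dense in the centre, with 269.6 per Mb against 322 on the left arm and 338 on the right arm. The centre thus held 52.4% (50.7 to 54.0) of the regions of replicate 1 and 45.0% (43.4 to 46.5) of those of replicate 2. On the other autosomes the centre shares were 53.0% and 49.5%. No test was run on these shares, since entries of a list overlap each other.

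Among strong entries both replicates had most of their regions on III in the centre, as they had on the other autosomes. At the highest score of replicate 1, 46 of 70 regions on III were in the centre (65.7%, 53.4 to 76.7), 19 on the right arm and 5 on the left arm. In the strongest 1% of replicate 2, the numbers were 29 of 50 (58.0%, 43.2 to 71.8), 13 and 8. On the other autosomes the centre shares were 60.3% in replicate 1 and 59.2% in replicate 2, so in replicate 2 that of III was slightly lower. The left-arm share on III was 7.14% (2.36 to 15.9) in replicate 1, against 19.6% on the other autosomes. In replicate 2 it was 16.0% (7.17 to 29.1) on III, against 12.4% on the other autosomes. The left-arm share of III was thus the lower one in replicate 1 and the higher one in replicate 2, and these differences were not tested.

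**Figure D4:**
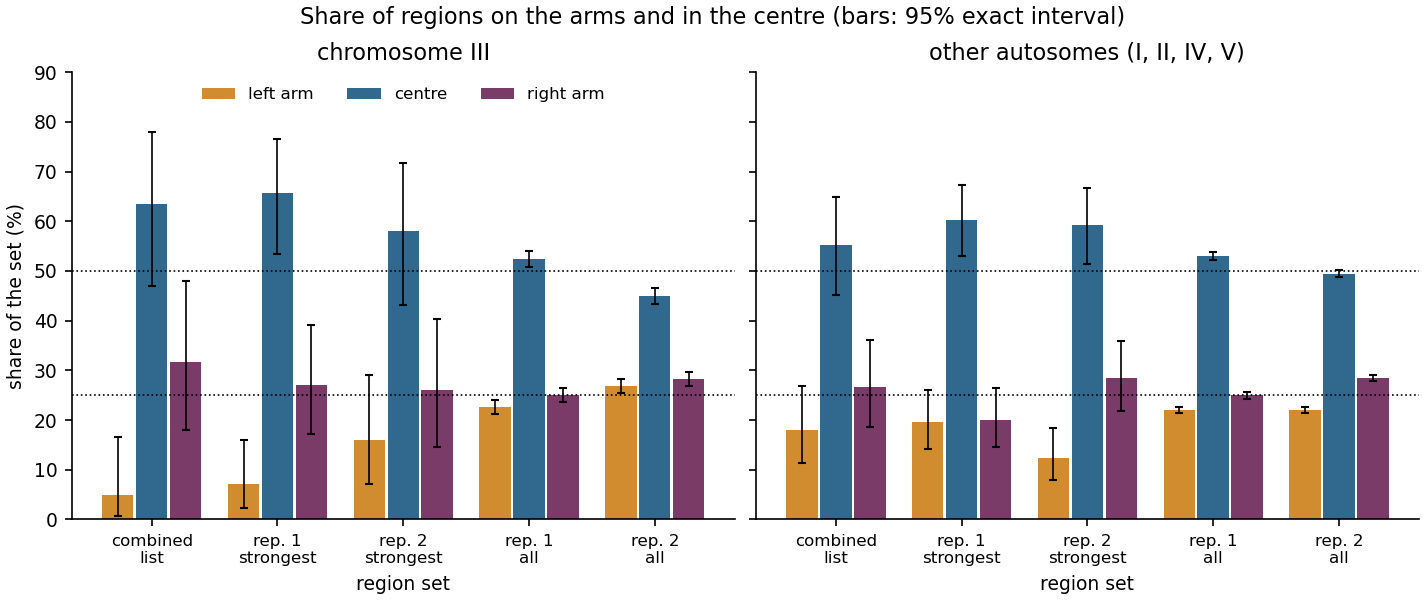
Share (%) of regions on the left arm, in the centre and on the right arm for the combined list, the strongest replicate entries (tied at the highest score in replicate 1, the strongest 1% in replicate 2) and the full lists, on chromosome III (left panel) and on the other autosomes (right panel). Whiskers are 95% exact intervals, and dotted lines mark 25% and 50% of the length. On III the left-arm bar is 4.88% in the combined list and 7.14% in the strongest entries of replicate 1, against 22.6% and 26.8% in the full replicate lists.

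Chromosome III had a larger share of the strongest entries than of the lists as a whole. It held 70 of the 344 nuclear regions at the highest score of replicate 1 (20.3%, 16.2 to 25) and 50 of 283 in the strongest 1% of replicate 2 (17.7%, 13.4 to 22.6). In the strongest 10% it held 15.4% and 12.5%, and in the full lists 14.1% and 13.8%. Its share of the nuclear length was 13.8%. The larger share was thus seen at the very top of the lists, and it was not tested.

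Under 50% of the regions of either replicate list on III were met by the other replicate, and the share was higher among strong entries. In replicate 1, 1461 of 3526 regions on III overlapped a region of replicate 2 (41.4%, 39.8 to 43.1), beside 44.1% over all nuclear regions and 44.5% on the other chromosomes. In replicate 2, 1425 of 4132 overlapped replicate 1 (34.5%, 33.0 to 36.0), beside 36.2% over all and 36.4% on the others. The lists cover 13.5% and 14.1% of III, so part of these overlaps is coincidental, and list lengths bear on the shares. In the centre of III the share was 39.3% in replicate 1, against 43.8% on its arms. In replicate 2 the order was the other way, with 36.4% in the centre and 32.9% on the arms.

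By rank, 54.6% (49.4 to 59.6) of the regions on III in the strongest 10% of replicate 1 were overlapped by replicate 2, against 60.1% (58.0 to 62.2) on the other nuclear chromosomes. In the strongest 10% of replicate 2 it was 55.6% (50.4 to 60.8) on III, against 49.0% (47.1 to 50.9) elsewhere. In the weakest 10% the shares on III were 36.4% in replicate 1 and 29.9% in replicate 2, against 40.4% and 29.9% elsewhere. The strongest 10% of the lists met each other at 79 of 383 regions of replicate 1 on III (20.6%) and at 79 of 372 of replicate 2 (21.2%), beside 19.7% and 16.2% over all nuclear regions.

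**Figure D5:**
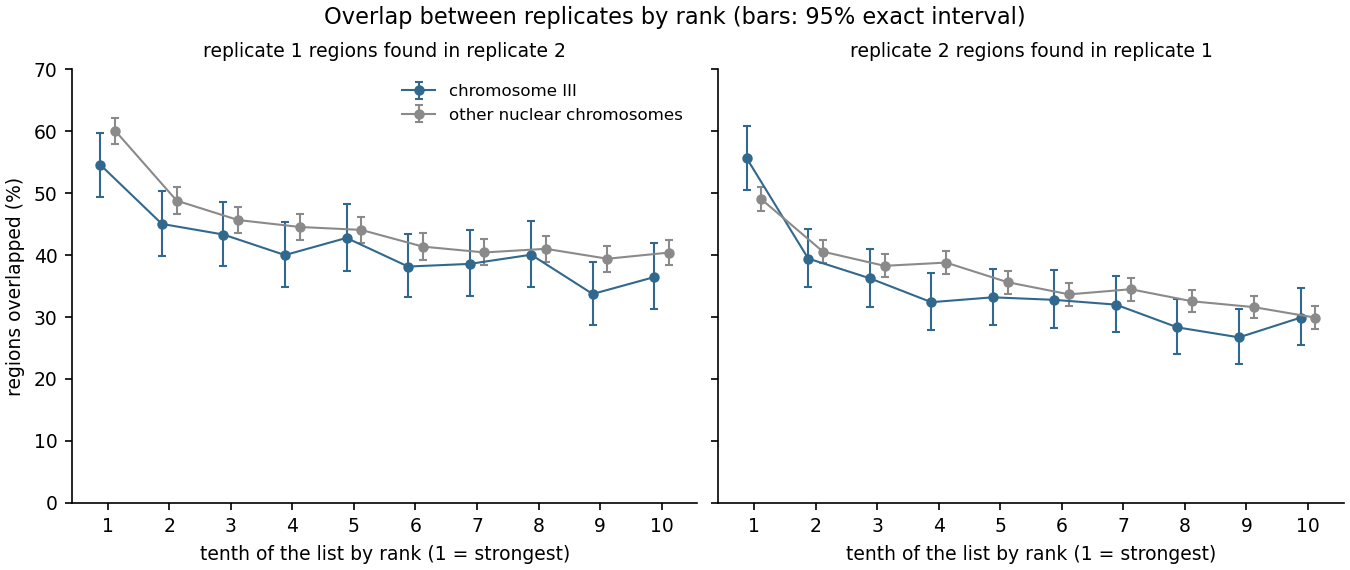
Share (%) of replicate 1 regions overlapped by replicate 2 (left panel) and of replicate 2 regions overlapped by replicate 1 (right panel), in 10 rank bins of each list, for chromosome III and for the other nuclear chromosomes. Whiskers are 95% exact intervals. On III the strongest bins stand at 54.6% and 55.6%, above the weakest bins at 36.4% and 29.9%.

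Not all strong entries on III entered the combined list. Of the strongest entries on III, 30 of 70 in replicate 1 (42.9%) and 33 of 50 in replicate 2 (66.0%) overlapped a combined region, beside 38.1% and 54.8% over all nuclear regions. A region of the other replicate, at any rank, was met by 51 of the 70 and by 42 of the 50. The matching numbers over all nuclear regions were not counted, so these cannot be read as particular to III. In the centre, 2 loci were among the strongest entries of both lists and absent from the combined list. One ran from 9765232 to 9765831 in replicate 1, at rank 140, and met rank 290 in replicate 2. The other ran from 4649235 to 4649834, with ranks 174 and 291.

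Some strong entries had no counterpart at all. The 3 strongest on III in replicate 1 that met neither replicate 2 nor the combined list ran from 8424756 to 8425355 (rank 103), from 9780842 to 9781441 (rank 121) and from 12608416 to 12609015 (rank 123), all tied at the highest score, so that name numbers set which 3 are given. In replicate 2 the strongest such region ran from 13778704 to 13779219 at rank 69, near the right end of the chromosome, and it too shared the highest score of its list, 2.17. The next were from 6803663 to 6804178 (rank 198) and from 3111713 to 3112228 (rank 199), both with a score of 1.15.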

How the data were processed

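The authors deposited 3 lists of regions, 1 per ChIP replicate and 1 for both combined, on WormBase WS220 per the file headers. The deposited score has no stated scale. The source column of the deposited lists names SPP and the irreproducible discovery rate (IDR). The sources used here do not name an aligner, versions or thresholds. Regions on III were selected by chromosome name. Ranks run over the whole list, by score and then by the number in the region name. A combined region takes the best rank among the entries it overlaps by at least 1 bp. Intervals are 95% exact (Clopper-Pearson) and cover counting error over regions only. The position tests are two-sided exact binomial and Fisher's exact tests at 0.05. No test over samples was run, since regions of ChIP libraries only were used. The text gives ranks for the 10 best and 5 worst combined regions by mean percentile rank, those lacking a counterpart, pairs within 1 kb, unusual widths and, for each replicate, its 3 strongest unmatched regions. The other 22 were described with their class after their ranks were seen. The members, lists and tests were chosen with earlier results of these data known. Counting ran in Python 3.11.15 with pandas 2.3.3 and numpy 2.4.6, tests in scipy 1.17.1 and plots in matplotlib 3.10.9. Overlap counting was checked on simulated lists.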

Additional observations from a re-analysis of the deposited data

How the results depend on the processing

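The share of combined regions in the centre of III, 63.4%, stayed above 50% under every alternative run and passed the exact binomial test under 1 of them. It was 70% (14 of 20) in the stronger 50% of the regions, a cut that split the 22 regions tied at the highest score. Over all 22 it was 63.6%. With regions within 1 kb merged it was 64.1%, and lists of 41 regions built without 1 replicate gave 58.5% to 65.9%. With all 70 regions tied at the highest score of replicate 1, a set added after the data were seen, the share was 65.7% and passed (exact binomial test, p = 0.0115). These entries can overlap each other, and on the other autosomes 60.3% of such regions lay in the centre. The difference from the other autosomes, 8.18 percentage points, ranged from -0.97 to 6.44 in lists built without 1 replicate and passed no test. The left-arm share of arm regions, 13.3%, was examined only once the counts had been seen. In the stronger 50% it was 0% (0 of 6), but that cut split the tie and left out the region starting at 2785757, which shared the highest score. All 22 tied regions had 1 on the left arm and 7 on the right arm. Without 1 replicate the left-arm share ranged from 20.8% to 35.3%. With the tie in replicate 1 broken by name number, 20 combined regions of III met the strongest 1% of both lists, 12 that of replicate 2 only, 7 that of replicate 1 only and 2 neither. The causes were not tested. The overlap rule moved the shares. Under midpoints at most 100 bp apart, 85.4% of the combined regions were found in replicate 1, and the replicates overlapped at 14.7% of replicate 1 and 12.5% of replicate 2 on III. With 50% of the shorter region required these were 29.2% and 24.0%. The strongest 10% of each list on III overlapped at 22.2% and 19.1%, since fewer entries can meet. Merging overlapping entries gave 42.9% and 34.9%. No paired analysis was possible because only region lists of ChIP libraries were used, with no values shared across groups. Read depth is unknown.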
